A study of Rattus norvegicus with 47 samples.

Results

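Ribosomal protein genes were followed in the testis of rats given methoxyacetic acid (MAA), a toxic metabolite of a glycol ether solvent that is known to damage spermatocytes. The genes are those whose symbol starts with Rpl or Rps and a number, or with Rplp, for the cytosolic ribosome, and with Mrpl or Mrps for the mitochondrial ribosome. The ribosomal S6 kinases, whose symbols also start with Rps, were left out. This gave 102 of 20500 probes, for 94 of 9645 genes with a symbol. The cytosolic ribosome had 56 probes for 50 genes, with 34 probes of the large and 22 of the small subunit. The mitochondrial ribosome had 46 probes for 44 genes, with 29 probes of the large and 17 of the small subunit.

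The animals were adult male Sprague-Dawley rats of 90 days. A single intraperitoneal dose of 650 mg/kg MAA was compared with saline, and testes were taken after 4, 8, 12 or 24 h. Groups had 6 animals each (5 in saline at 4 h), and each of the 47 animals had 1 array of its own. RNA from the parenchyma of the right testis was hybridised on a 2-colour Agilent oligonucleotide array together with a universal rat reference RNA, a commercial RNA pool, in the other dye. This tissue holds all cell types of the testis, so that fewer cells of a type and less RNA per cell cannot be told apart in any value below.

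The cytosolic ribosome makes nearly all proteins of a cell, and its protein genes are among the most strongly expressed genes of every tissue. The mitochondrial ribosome is built of other, nuclear-encoded proteins and makes only the few membrane proteins that the mitochondrial genome encodes. In the testis ribosomal proteins have a further side. Some are X-linked, and the X chromosome is silenced in meiosis, when autosomal copies such as Rpl10l and Rpl39l are known from mouse to stand in for Rpl10 and Rpl39. Neither of those copies is among the 102 probes. Cytosolic ribosomal protein genes also have many processed pseudogenes, and signal shared between near-identical transcripts is not resolved by these probes, so that a value of any single cytosolic gene is uncertain to that degree.

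Cytosolic ribosomal protein messages are known for a tract of pyrimidines at the 5′ end, through which the mTOR pathway controls their translation. The start regions of 41 cytosolic and 35 mitochondrial genes were found in RefSeq's promoter table (build GRCr8), which gives 250 bases before and 50 after each start. A run of at least 8 C or T letters touched the window from 10 bases before to 15 after the start in 30 of 41 cytosolic genes (73.2%). The same held for 8 of 35 mitochondrial genes (22.9%) and for 14.9% of 33469 promoters. The whole length of a run was counted, also where only part of it lay in the window. The motif CCGGAAG, a core of ETS factor sites, was present on either strand in 24.4% of the cytosolic, 34.3% of the mitochondrial and 8.75% of all promoters. The motif AAGATGG, a core of YY1 sites, was present in 14.6%, 25.7% and 7.01% of them. The letters are a description of these windows and not evidence of binding. The genes shown are cytosolic ones that the results at 24 h turn on, and the mitochondrial genes with the highest and lowest saline ratio. Mrpl3 is shown too, although its change at 24 h did not pass the test in the loess-corrected ratio. Each sequence runs from 20 bases before the annotated start to 20 bases from the start on, and capitals mark the longest run of C and T that touches the window.
Rpl10, chrX:157205830-157205869, plus strand: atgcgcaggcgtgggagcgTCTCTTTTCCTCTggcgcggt
Rps21, chr3:187724018-187724057, plus strand: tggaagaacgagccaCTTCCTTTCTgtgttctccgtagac
Rpl31, chr9:49143091-49143130, plus strand: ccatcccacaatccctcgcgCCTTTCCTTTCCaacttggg
Rpl9, chr14:43247570-43247609, plus strand: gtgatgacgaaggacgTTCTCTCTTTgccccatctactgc
Rpl5, chr14:1995206-1995245, minus strand: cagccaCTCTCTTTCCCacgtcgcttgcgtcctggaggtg
Rps3a, chr2:173827023-173827062, minus strand: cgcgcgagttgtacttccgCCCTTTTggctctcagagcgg
Rpl18, chr1:105325250-105325289, plus strand: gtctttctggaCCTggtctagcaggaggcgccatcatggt
Mrpl1, chr14:13663502-13663541, minus strand: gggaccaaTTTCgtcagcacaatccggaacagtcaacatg
Mrpl53, chr4:117173023-117173062, plus strand: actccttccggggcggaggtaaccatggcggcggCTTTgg
Mrpl3, chr8:114548950-114548989, plus strand: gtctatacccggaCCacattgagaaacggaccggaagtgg
The runs measured 13 bases in Rpl10, 12 in Rpl31, 11 in Rpl5, 10 in Rps21 and in Rpl9, 7 in Rps3a and 3 in Rpl18. In the mitochondrial genes shown they measured 4 in Mrpl1, 4 in Mrpl53 and 2 in Mrpl3.

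All signed values below are log2 values. M is log2 of testis over reference brightness after a loess correction within each array, and a change is M of MAA-treated animals minus M of saline animals at the same time. The labels name Cy5 as the testis dye. In the array files, however, testis RNA is in the Cy3 column, so the direction used here is the opposite of the labelled one. The marker medians that follow take Cy3 as testis and are ratios after median centring of each array, not M. By this measure 8 measured spermatocyte markers had a median log2 ratio of 1.09 and 14 elongating spermatid markers one of 0.83, above 0 on 47 of 47 arrays each. A list of 16 genes of other organs, written after the files were seen, had a median of -1.65 and lay above 0 on none of the arrays. In M the saline values of single markers lay on both sides of 0. They ran from -0.38 (Msh5) to 2.22 (Sycp1) for spermatocyte markers and from -0.42 (Tnp1) to 1.44 (Tekt1) for elongating spermatid markers. The dyes were not swapped, so a dye effect is part of every M but not of the change between MAA and saline.

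The arrays were unequal in brightness and many cytosolic probes were at the scanner's limit. The median brightness of an array was 431 to 1749 units in the testis channel and 641 to 2742 in the reference channel, and 43.5% to 97.2% of its probes stood above background. A spot at the scanner's upper limit is saturated. The reference spot was saturated on at least 1 array for 29 of 56 cytosolic probes and on 24 or more of the 47 arrays for 20, and the testis spot on at least 1 array for 20. No mitochondrial probe was saturated. Of all 20500 probes only 52 had a saturated reference spot on 24 or more arrays. Of the 102 probes 84 were above background on all 47 arrays, and 11 on fewer than 24. The array of MAA-treated animal 27 at 12 h carries the reference channel of another array (20500 of 20500 spots equal), and without it the counts of called ribosomal probes were the same at each time.

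In saline testis most cytosolic ribosomal protein genes lay below the reference RNA, while the mitochondrial genes were spread around it. The median M was -0.88 for the cytosolic probes, 1.84-fold lower in testis than in the reference, with -0.84 for the large and -0.93 for the small subunit. It was -0.40 with median centring in place of loess and -0.57 with the authors' deposited ratio. The limma test of the mean of the 4 saline groups against 0 called 50 of 56 cytosolic probes below and 2 above the reference (adjusted p under 0.05, Benjamini-Hochberg over 20500 probes). Of all probes 31.8% were called below and 33.1% above, and the median of all probes was 0.04. The 46 mitochondrial probes had a median of 0.03, with 20 called below and 18 above, shares of 43.5% and 39.1%.

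**Figure D1:**
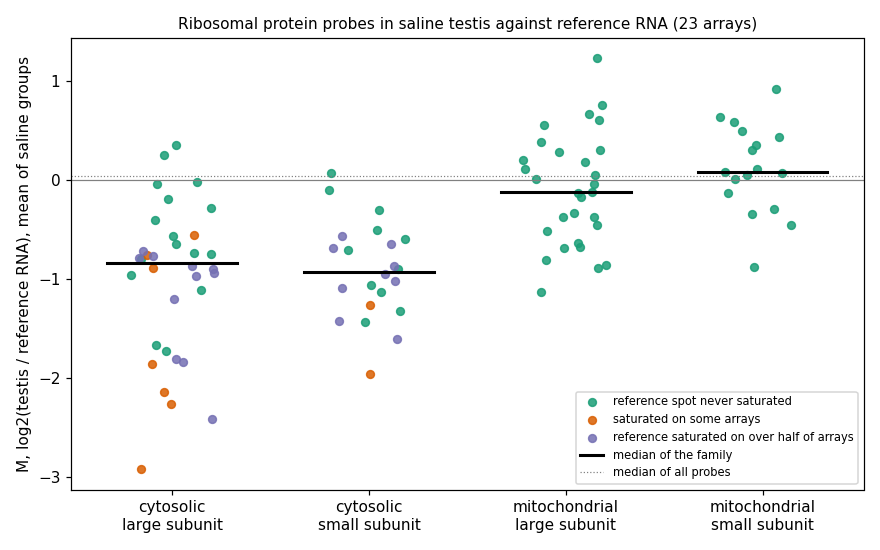
Ratio of saline testis to reference RNA for the 102 ribosomal protein probes. Each point is a probe, with M (log2 of testis over reference, mean of the 4 saline groups, 23 arrays) on the vertical axis and the ribosomal subunit on the horizontal axis. Colours give how often the reference spot was saturated, bars the median of a family, and the dotted line the median of all probes (0.04). Cytosolic probes lie mostly below 0 (medians -0.84 and -0.93), mitochondrial probes on both sides (medians -0.12 and 0.08).

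A saturated reference spot understates the reference, so that M is then too high. Among the 27 cytosolic probes that were never saturated the median was -0.65, and 21 were called below and 2 above. Among the 20 with a reference spot saturated on 24 or more arrays it was -0.95, with 20 called below. All 52 probes of any gene with such a reference spot were called below too, with a median of -0.93. The 20 of 20 is therefore not particular to ribosomal protein genes. The 9 probes saturated on fewer arrays had a median of -1.86, and Rpl6 (-2.26), Rpl10a (-2.14), Rps29 (-1.96) and Rpl19 (-1.86) were among them. Rps12, a small-subunit protein, was saturated in the reference on all 23 saline arrays and in the testis channel on part of them, and no fold is given for it.

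The X-linked Rpl10, a protein of the large subunit close to its catalytic centre, was the lowest of the 102 probes. Its M on the 23 saline arrays had a lowest value of -3.17, a median of -2.98 and a highest of -2.64, a 7.59-fold lower level in testis than in the reference (mean -2.92, SE 0.04, limma adjusted p = 3.22e-29). Rpl39, also X-linked and a protein of the exit tunnel, ranged from -1.20 to -0.19 with a median of -0.60, 1.57-fold lower in testis. All 23 saline arrays were below 0 for both genes. The level of Rpl39 was near that of its family. The median of the 27 cytosolic probes never saturated was also 1.57-fold lower, and that of all 56 was 1.84-fold lower.

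Other large-subunit genes without any saturated spot were low as well. Rpl28 was 3.31-fold lower in testis than in the reference (M -1.73, SE 0.04), Rpl29 2.16-fold (M -1.11) and Rpl35a 1.95-fold (M -0.96). Among genes above background on all 23 saline arrays and never saturated, each taken at its brightest probe, the highest of the large subunit were Rpl4 at -0.02, Rpl18 at -0.28 and Rpl41 at -0.40. Rpl3l, the paralogue of Rpl3 that is typical of striated muscle, was at -0.04 but above background on only 7 of 47 arrays, so that its ratio says little.

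The small subunit ran from -1.96 to 0.07 and the large one from -2.92 to 0.35. Rps19 was 2.70-fold, Rps26 2.50-fold and Rps25 2.19-fold lower in testis, with values of -1.43, -1.32 and -1.13. Rps26 had the narrowest range of these, from -1.57 to -1.15 with a median of -1.29 over the 23 saline arrays. Rps15 lay at -0.10 and was not called (adjusted p = 0.0672), Rps10 at -0.30 and Rps27l, a p53-inducible paralogue of Rps27, at -0.50. The 2 probes called above the reference, for Rpl30 (0.25) and Rpl34 (0.35), were above background on 6 and 7 of 47 arrays.

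Mitochondrial genes stood on both sides. Mrpl1, a protein of the large subunit, was highest at 1.23 (SE 0.04), 2.34-fold higher in testis than in the reference, with saline arrays between 0.92 and 1.48 and a median of 1.25. Mrps5 of the small subunit followed at 0.92 (1.90-fold higher) and Mrpl44, which carries a ribonuclease-like domain, at 0.76 (1.69-fold higher). All 23 saline arrays were above 0 for these genes. Mrpl47 (0.61), Mrps22 (0.64) and Mrps15 (0.59) were also above the reference.

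The lowest mitochondrial gene was Mrpl53 at -1.13, 2.18-fold lower in testis, with saline arrays between -1.43 and -0.69 and a median of -1.14. Mrpl12, which is also known to bind the mitochondrial RNA polymerase, was at -0.89, Mrps21 at -0.88 and Mrpl28 at -0.86, all with every saline array below 0. Mrps12, a protein of the decoding centre, was at -0.45 and Mrps33 at -0.34. Values of single genes thus ranged more widely within the mitochondrial family than its median near 0 shows.

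At 4 h no ribosomal protein probe was called. Of 56 cytosolic probes 3 and of 46 mitochondrial probes 3 had an unadjusted p under 0.05, beside 1516 of all 20500 probes. By adjusted p limma called 0.0195% of all probes. The median change was -0.02 for cytosolic and 0 for mitochondrial probes. The smallest p in each subunit belonged to Rpl4 (-0.30, SE 0.13, adjusted p = 0.616), Rps20 (-0.36), Mrps23 (-0.24) and Mrpl30 (0.16). Next in their subunits came Rpl41 (-0.28), Rps13 (0.25), Mrps5 (-0.38) and Mrpl10 (0.14). Adjusted p-values of these 8 genes lay between 0.584 and 0.833. Rpl4, a protein of the exit tunnel, and Mrps23 had no overlap between treated and saline animals, 2 of the 102 probes, against 0.663% of all probes without overlap at this time. At the second Mrps23 probe the groups overlapped, with a change of -0.10.

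At 8 h again none was called, against 0.00976% of all probes. There were 1 cytosolic and 2 mitochondrial probes at an unadjusted p under 0.05, beside 1458 of all 20500 probes. The medians were 0.02 and 0.03. Mrpl21, a mitochondrial large-subunit protein, had a change of -0.52 (SE 0.17, adjusted p = 0.423). Its M was -0.44, -0.20 and 0.54 (lowest, median, highest) in MAA-treated animals against 0.08, 0.35 and 0.84 in saline animals, and the groups overlapped, although 5 of the 6 treated animals lay below every saline animal. The other genes with the smallest p in their subunits were Rpl15 (0.32) and Rpl34 (-0.41) of the large cytosolic subunit, Rps20 (0.25) and Rps15a (-0.16) of the small one, and Mrpl27 (-0.22), Mrps18b (0.23) and Mrps5 (0.15) of the mitochondrial ribosome. Rpl15, Rpl34 and Rps20 were above background on 14, 7 and 12 of the 47 arrays only.

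At 12 h, when 2.54% of all probes were called, the count was 0 of 56 cytosolic and 0 of 46 mitochondrial probes. An unadjusted p under 0.05 was reached by 7 and 3 of them, beside 3011 of all 20500 probes. The medians were -0.02 and -0.07, and the median of all probes was 0.04. The cytosolic genes with the smallest p in their subunits were Rpl18 (0.32, SE 0.10, adjusted p = 0.0805), Rpl10 (0.36, SE 0.12, adjusted p = 0.113), Rps20 (0.48, above background on 12 arrays) and Rps3a (-0.27). Among the mitochondrial genes these were Mrpl53 (-0.36, adjusted p = 0.151), Mrpl47 (0.32), Mrps11 (-0.52, adjusted p = 0.155) and Mrps23 (-0.20). Of 8 measured spermatocyte markers 3 were lower at this time, the synaptonemal complex genes Sycp1 (-0.99), Sycp2 (-0.66) and Sycp3 (-0.63). Higher at 12 h were 2 of 14 elongating spermatid markers, Hils1 (0.50) and Spata18 (0.36), 2 of 6 myoid markers, Actg2 (0.65) and Myl9 (0.48), 1 of 16 Sertoli cell markers, Inha (0.73), and 1 of 7 spermatogonial markers, Uchl1 (0.78). Of all probes 1.69% were called higher and 0.844% lower at this time. The testis channel alone, with 2.25% of all probes called, also called Sycp1 (-0.91), Sycp2 (-0.69), Sycp3 (-0.89) and Inha (0.67). It did not call Hils1 (0.11, adjusted p = 0.854), Spata18 (0.20, adjusted p = 0.59) or Uchl1 (0.46, adjusted p = 0.16). The testis spot was saturated on 6 arrays for Hils1 and on 5 for Spata18. The part of cell numbers in the ribosomal values was not tested.

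At 24 h 8 of 56 cytosolic probes were called, all higher in MAA-treated animals, and 0 of 46 mitochondrial probes. Of all probes 2.99% were called, 2.25% as higher and 0.737% as lower. An unadjusted p under 0.05 was reached by 25 cytosolic and 5 mitochondrial probes, beside 2939 of all 20500 probes. Of these 25 cytosolic probes, 19 were among the 20 with a reference spot saturated on 24 or more arrays. Of all 52 probes so saturated, 47 had an unadjusted p under 0.05. The cytosolic median was 0.21 with 47 of 56 probes above 0, against 54.0% of all probes, but it was -0.07 both with median centring in place of loess and in the testis channel alone. The mitochondrial median was 0.00. With date as a random block, and also without a date term, 1 of 56 cytosolic probes was called, Rpl10. Treated and saline animals did not overlap in 7 of the 102 probes, against 1.89% of all probes. With 1 array left out at a time the count of cytosolic calls was 2 to 14. It was 2 without MAA-treated animal 39, 3 without MAA-treated animal 40 or 47, 4 without saline animal 38, 45 or 46, 5 without MAA-treated animal 48 or saline animal 37, and 14 without MAA-treated animal 36 of 12 h.

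**Figure D2:**
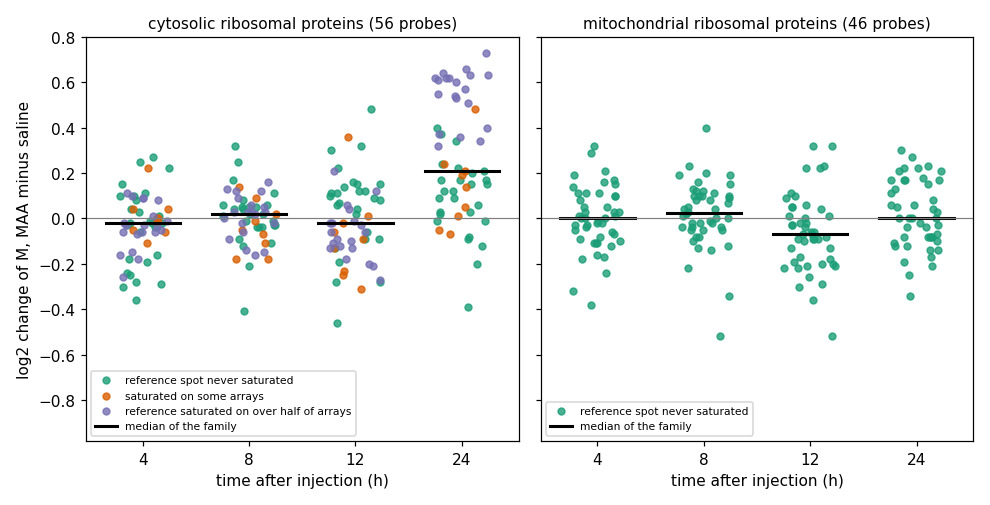
Change of ribosomal protein probes after MAA at each time. Each point is a probe, with the log2 change of M (MAA minus saline, limma fit) on the vertical axis and the time after injection in h on the horizontal axis. Bars are the family median. At 24 h the 20 cytosolic probes with a reference saturated on 24 or more arrays lie between 0.32 and 0.73. The 9 saturated on fewer arrays lie between -0.07 and 0.48, and the 27 never saturated between -0.39 and 0.40. The median of all cytosolic probes is 0.21, but -0.07 with median centring or in the testis channel alone. The mitochondrial median is 0.00.

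The called probes were for Rps21 and Rps3a of the small subunit and for Rpl5, Rpl9, Rpl10, Rpl18, Rpl27 and Rpl31 of the large one. Rpl5 is the protein that carries the 5S ribosomal RNA into the ribosome. In 6 of the 8, all but Rpl10 and Rpl18, the reference spot was saturated on 29 to 45 of the 47 arrays. The 8 changes lay between 0.34 and 0.73, and none of the 8 was called in the testis channel alone.

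Rpl10 had an M of -2.63, -2.54 and -2.28 (lowest, median, highest) in MAA-treated animals and of -3.07, -2.98 and -2.87 in saline animals at 24 h. Not one of the 6 treated animals overlapped with the 6 saline animals. The change was 0.48 (SE 0.11, limma adjusted p = 0.0128), 1.40-fold. The reference spot was saturated on 1 of 47 arrays and the change was 0.48 with saturated spots left out (adjusted p = 0.0147), a setting in which 37 of the 56 cytosolic probes have a value at 24 h, 2 of them called, against 2.85% of all probes. It was 0.17 in the testis channel alone (adjusted p = 0.52), with 11.69, 12.09 and 12.16 in MAA-treated and 11.53, 11.84 and 12.10 in saline animals, where the groups overlapped. It was 0.33 with the authors' deposited ratio (adjusted p = 0.143) and 0.05 with median centring (adjusted p = 0.947). Within the 2 hybridisation dates that held 2 treated and 2 saline animals of 24 h it was 0.52 and 0.51, and without MAA-treated animal 40 its adjusted p was 0.0553.

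Rpl10 was not called at the other times. Its change was -0.05 at 4 h, 0.14 at 8 h and 0.36 at 12 h. The treated animals at 12 h had an M of -2.86 to -2.57 against -3.17 to -2.84 in saline animals, with a small overlap. The F test of a difference between times gave Rpl10 an adjusted p of 0.272.

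Rpl18 had an M of -0.22, 0.02 and 0.35 in MAA-treated animals at 24 h and of -0.38, -0.24 and -0.11 in saline animals. Of the 6 treated animals 5 lay above every saline animal. The change was 0.34 (SE 0.09, adjusted p = 0.0411), 1.26-fold, and no spot of this probe was saturated. With date as a random block its adjusted p was 0.0545, and 0.0755 without a date term. In the testis channel alone it was 0.13, and with median centring -0.07, the opposite sign. Leaving out 1 array at a time, the call was lost for 10 of the 47 arrays, among them those of treated animals 39, 40, 47 and 48 and saline animals 41, 42, 45 and 46, with a change of 0.27 to 0.38 over all 47 single omissions and adjusted p-values of 0.0182 to 0.158.

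Rps21 had the smallest p of the family. Its M was -1.01, -0.82 and -0.27 in MAA-treated animals against -1.55, -1.33 and -1.01 in saline animals, a change of 0.62 (SE 0.15, adjusted p = 0.0116), 1.54-fold. With date as a random block it was 0.56 and no longer called (adjusted p = 0.0803), and likewise without a date term (adjusted p = 0.132). The reference spot of Rps21 was saturated on all 6 arrays of treated animals and on 3 of 6 of saline animals. The testis channel alone gave 15.11, 15.21 and 15.41 in treated and 15.00, 15.32 and 15.47 in saline animals, a change of -0.03.

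Rpl9 had the largest change of the 102 probes, 0.73 (SE 0.19, adjusted p = 0.0275), 1.66-fold. It was not called with date as a random block (adjusted p = 0.157) or without a date term (adjusted p = 0.232). Its M was -1.77, -1.55 and -0.97 in MAA-treated animals and -2.57, -2.08 and -1.89 in saline animals, without overlap. The reference spot was saturated on all 12 arrays of 24 h, so that its M there holds only the testis brightness and the loess curve of the array. In the testis channel alone the change was 0.08.

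**Figure D3:**
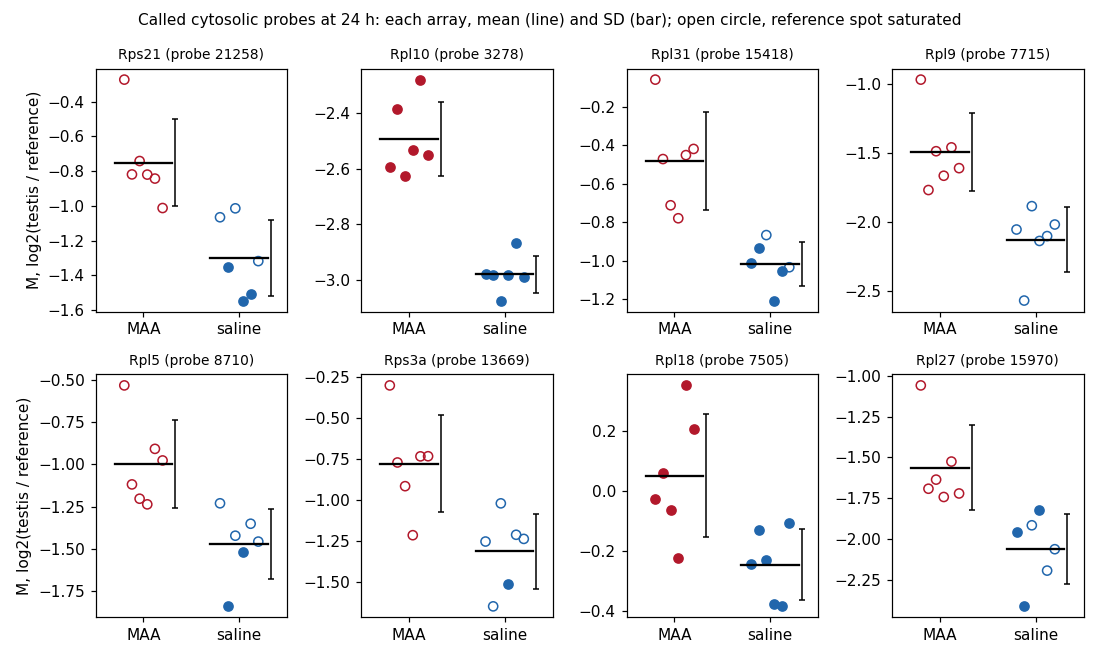
The 8 cytosolic probes called at 24 h. Each point is an array, with M (log2 of testis over reference) on the vertical axis and MAA-treated and saline animals side by side, lines for the mean and bars for the SD (n = 6 each), and open circles where the reference spot was saturated. All spots of Rpl18 and Rpl10 are unsaturated here; in the other 6 probes every treated array is saturated in the reference. None of the 8 was called in the testis channel alone, and with that channel the sign turns for Rps21, Rpl5 and Rps3a.

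Rpl31 had an M of -0.78, -0.46 and -0.06 in MAA-treated animals and of -1.21, -1.02 and -0.87 in saline animals, without overlap. Rpl5 had -1.24, -1.05 and -0.53 in treated and -1.84, -1.44 and -1.23 in saline animals. Rps3a had -1.22, -0.75 and -0.30 in treated and -1.65, -1.25 and -1.02 in saline animals. For Rpl5 and Rps3a 5 of the 6 treated animals lay above every saline animal. Rpl27 had -1.74, -1.66 and -1.06 in treated and -2.41, -2.01 and -1.82 in saline animals, without overlap. The changes of Rpl31, Rpl5, Rps3a and Rpl27 were 0.60, 0.62, 0.62 and 0.61 (adjusted p = 0.0176, 0.0308, 0.033 and 0.0416). With date as a random block none of these 4 was called (adjusted p = 0.0556, 0.3, 0.162 and 0.208). In the testis channel alone their changes were 0.08, -0.08, -0.09 and 0.07. For Rpl27 the reference spot of this probe was saturated on 6 arrays of treated and 3 of saline animals. Second probes of the same genes gave other values. The second Rpl27 probe, never saturated, had an M of -1.60, -1.45 and -1.23 in MAA-treated and of -1.73, -1.65 and -1.52 in saline animals, a change of 0.22 (adjusted p = 0.423). The second Rps3a probe, saturated on 41 arrays in the reference, had a change of 0.54 (adjusted p = 0.0842).

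Rplp0, the base of the ribosomal stalk, had a change of 0.63 (adjusted p = 0.0581) at its probe with a reference saturated on 46 arrays and of 0.06 (adjusted p = 0.911) at its probe that was never saturated. The treated animals had an M of -0.84, -0.73 and 0.06 at the first probe, against -1.55, -1.21 and -0.83 in saline animals, and of -0.55, -0.23 and 0.31 at the second, against -0.66, -0.22 and 0.01. Rpl24 had changes of 0.34 and -0.12 at such a pair of probes. The X-linked Rpl39, never saturated, had a change of 0.02 (SE 0.14, adjusted p = 0.971), with -0.85, -0.55 and -0.44 in treated and -1.0, -0.67 and -0.40 in saline animals. For Rps16 the values were 0.32 and 0.20, but the probe never saturated was above background on only 16 arrays. Rpl36al1 had 0.05 at its probe saturated on 6 arrays and 0.21 at that saturated on 16. The differences between probes of a gene were not tested.

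Sorted by saturation, the 20 cytosolic probes with a reference spot saturated on 24 or more arrays were all above 0 at 24 h, between 0.32 and 0.73, with a median of 0.59 and 6 called. Besides the genes above they included Rps12 (0.66), Rps23 (0.64), Rps24 (0.63), Rpl32 (0.57), Rps6 (0.55), the substrate of the S6 kinases, Rpl8 (0.53), Rpl37l1 (0.51), Rpl13 (0.40), Rps15a (0.37) and Rpl13a (0.36), none of them called. The 27 never saturated had a median of 0.12, with 20 above 0 and 1 called, Rpl18. The other 9, saturated on fewer arrays, had a median of 0.14 and 1 called, Rpl10, with Rpl11 at 0.24, Rpl6 at 0.19, Rps9 at 0.14, Rps29 at 0.01, Rpl10a at -0.05 and Rpl19 at -0.07. Of all 52 probes with such a reference spot 51 were above 0, with a median of 0.59 and 11 called. In the testis channel alone the 20 probes had a median of -0.07, the 27 never saturated of -0.03 and all 52 of -0.03. At 12 h, the 20 probes had a median M change of -0.08.

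**Figure D4:**
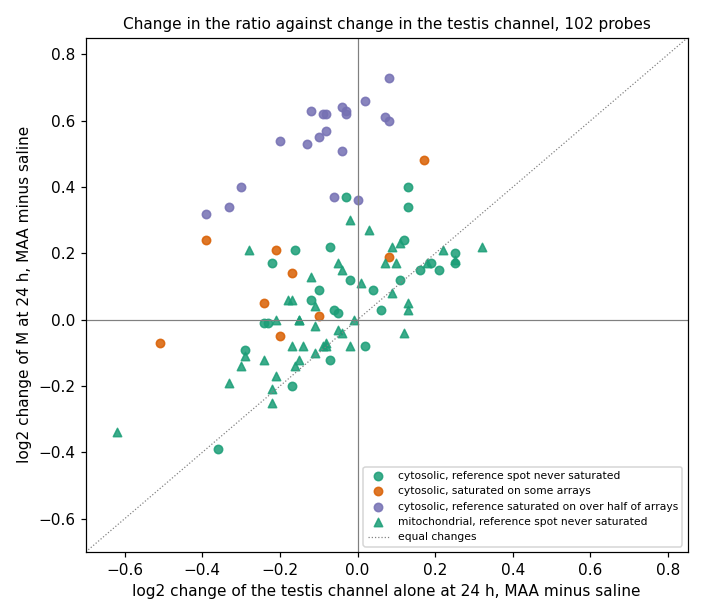
Change of the ratio against change of the testis channel at 24 h. Each point is one of the 102 probes, with the log2 change (MAA minus saline) of the testis channel alone on the horizontal and of M on the vertical axis, circles for cytosolic and triangles for mitochondrial probes, and the dotted line for equal changes. The 20 probes with a reference saturated on 24 or more arrays have a median of 0.59 in M and of -0.07 in the testis channel.

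The arrays of treated and saline animals of 24 h differed in how many cytosolic probes were saturated. The number of cytosolic probes with a saturated reference spot was 19, 21 and 27 (lowest, median, highest) on arrays of MAA-treated animals and 11, 17 and 18 on arrays of saline animals. The median brightness of the reference channel was 1077 to 2101 units on arrays of MAA-treated animals and 869 to 1176 on those of saline animals. Without animal 39, the only one at 2101, the 5 other arrays of treated animals lay between 1077 and 1220.5 units, with 19 to 22 saturated cytosolic probes. The median M over the 27 never saturated probes was -0.62, -0.54 and -0.51 for treated and -0.83, -0.69 and -0.61 for saline animals, and the groups overlapped by 1 array each. The median M of mitochondrial probes was -0.07 to 0.05 for treated and -0.07 to 0.06 for saline animals. The part of saturation and of the loess curve in the called changes was not tested beyond these values.

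**Figure D5:**
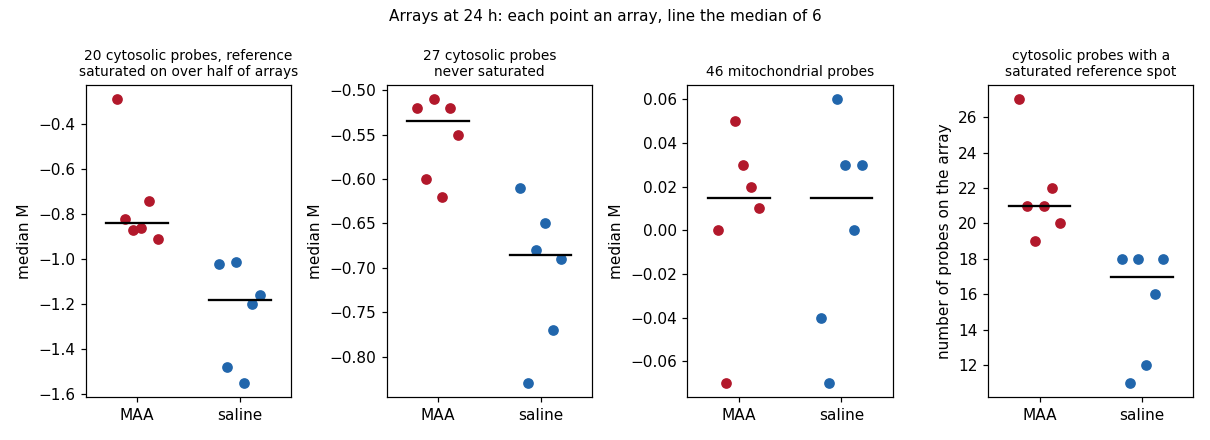
Array values at 24 h. Each point is an array (6 MAA, 6 saline) and each line a median; the vertical axes give the median M of 20 cytosolic probes with a reference saturated on 24 or more arrays, of 27 never saturated, of 46 mitochondrial probes, and the number of cytosolic probes with a saturated reference spot. That number is 19 to 27 on MAA arrays and 11 to 18 on saline arrays, while the mitochondrial medians lie between -0.07 and 0.05 on MAA arrays and between -0.07 and 0.06 on saline arrays.

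Mitochondrial ribosomal protein genes showed no call in M at 24 h. The smallest p-values within the subunits belonged to Mrps21 (0.27, SE 0.09, adjusted p = 0.11), Mrpl3 (-0.34, SE 0.12, adjusted p = 0.137), Mrpl55 (0.30, SE 0.11, adjusted p = 0.173) and Mrps33 (0.17, adjusted p = 0.492). Mrps21 had an M of -0.77, -0.68 and -0.53 in MAA-treated and of -1.16, -0.95 and -0.83 in saline animals, which did not overlap. With median centring the signs of Mrps21, Mrpl55 and Mrps33 turned.

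Mrpl3, a protein of the large subunit of the mitochondrial ribosome, had a change between -0.62 and -0.29 at 24 h in the alternatives computed for this probe, which leave out the series table, and M did not pass the test. Its M at 24 h was -0.34, -0.31 and -0.06 in MAA-treated animals and -0.11, 0.03 and 0.34 in saline animals, with a small overlap. In the testis channel alone it was 10.40, 10.81 and 11.06 in treated and 11.10, 11.38 and 11.58 in saline animals, with every treated animal below every saline animal. That change of -0.62 was called in the testis channel alone (adjusted p = 8e-04, with 5.24% of all probes called there), and a change of -0.48 with the authors' deposited ratio (adjusted p = 0.0246). The share of all probes without overlap at 24 h was computed for M (1.89%) and not for the testis channel. At 12 h the testis channel gave -0.57 (adjusted p = 0.0071), and M -0.26 (adjusted p = 0.352). The spot was never saturated, and within the 2 shared dates its M change was -0.30 and -0.40.

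The testis channel alone called 2 further probes, each lower in MAA-treated animals. Mrpl27 had -0.39 at 12 h (adjusted p = 0.0468), when 2.25% of all probes were called there, and its M change was -0.22 (adjusted p = 0.384). Rps16, at its probe saturated in the reference, had -0.39 at 24 h (adjusted p = 0.0252) against 0.32 in M, the opposite sign.

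The F test of the MAA effect between times called 0 of the 102 probes, against 0.127% of all probes. An unadjusted p under 0.05 was reached by 15 cytosolic and 1 mitochondrial probe, and the lowest adjusted p was 0.111, for Rps21. A change at 24 h that was called is therefore not shown to differ from the changes at earlier times.

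Partners of the ribosome moved in single genes. The list of cytosolic translation factors has 47 measured genes and also holds the ribosomal protein gene Rpsa. Of these genes 2 were higher and 3 lower at 24 h, with a median of 0.08, beside 2.25% higher and 0.737% lower of all probes. Eif4ebp2, a repressor of cap-dependent initiation, was higher by 0.84 (SE 0.19, adjusted p = 0.00868) and the termination factor Etf1 by 0.44 (adjusted p = 0.0369). The subunits Eif2b1 (-0.48) and Eif2b2 (-0.37) of the exchange factor of initiation and the elongation factor subunit Eef1b2 (-0.46) were lower. In the testis channel alone Eif2b2 (-0.76, adjusted p = 4.64e-05), Eef1b2 (-0.59) and Etf1 (0.35) were also called, and Eif4ebp2 (0.43, adjusted p = 0.34) and Eif2b1 (-0.39, adjusted p = 0.0771) were not. At 12 h limma called 1.69% of all probes higher and 0.844% lower. Eif3a (0.76) and Eef1a2 (0.63) were then higher, and the cap-binding Eif4e (-0.47) and Eif2b2 (-0.46) lower. Of these only Eif2b2 was called in the testis channel alone at 12 h (-0.52, adjusted p = 0.0143).

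Of 21 genes in the list of mitochondrial translation none was called at any time, with a median of -0.13 at 24 h. This list also holds the ribosomal protein gene Dap3 and transcription genes such as Tfam, Polrmt and Mterf1. Only 14 of the 21 were above background on 24 or more arrays. Of 39 ribosome assembly factors 2 were higher at 24 h, Utp14a (0.82) and Bop1 (0.41), which act in ribosomal RNA processing, and 1 at 12 h, Gnl3 (0.53). Of all probes 2.25% were called higher at 24 h and 1.69% at 12 h. In the testis channel alone Utp14a (0.65, adjusted p = 0.0173) was called. Bop1 (0.22, adjusted p = 0.254) and Gnl3 (0.34, adjusted p = 0.319) were not. Of 20 genes in a list of S6 kinases and the mTOR pathway, with Myc, Mycn and Max, 1 was higher at 24 h, again beside 2.25% of all probes. It was the S6 kinase gene Rps6ka2 (0.66, adjusted p = 0.0317), also called in the testis channel alone (0.48, adjusted p = 0.0447). No gene of these 4 lists was called at 4 or 8 h.

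Cell type markers at 24 h moved in both directions, beside the 2.25% of all probes called higher and 0.737% lower. Of 8 spermatocyte markers the mismatch repair gene Mlh3 was lower (-0.68) and the cohesin gene Smc1b higher (0.45), with a list median of -0.16, and the summed brightness of the list in the testis channel was 30600 to 48400 units in MAA-treated and 46300 to 63800 in saline animals. All 8 were above background on 24 or more arrays. Of 16 Sertoli cell markers 2 were higher, Ctsl (0.90) and Aard (0.60), with sums of 42000 to 60200 units in treated and 36700 to 42200 in saline animals. These ranges overlap at their ends, and those of all other marker lists overlap more widely. The sums were 548000 to 582000 in treated against 487000 to 610000 in saline animals for elongating spermatid markers. For Leydig cell markers they were 24500 to 25800 against 22100 to 26100. Of 14 elongating spermatid markers 1 was higher, Cabyr (0.47), of 10 Leydig cell markers 2, of 7 spermatogonial, 6 myoid and 3 blood cell markers 1 each, and of 17 macrophage and leukocyte, 10 endothelial, 5 round spermatid and 16 other-organ markers 0. The testis channel alone, with 5.24% of all probes called, also called Mlh3 (-0.69), Smc1b (0.37), Ctsl (0.81) and Aard (0.65). It did not call Cabyr (0.07, adjusted p = 0.792), whose testis spot was saturated on 6 arrays. None of 3 epididymis markers was above background on 24 arrays. Their part in the ribosomal values was not tested.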

How the data were processed

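Testis RNA of 47 rats was measured on 47 arrays against 1 reference RNA. The raw columns are spot intensities as deposited, quantified with ImaGene per the file headers, with a limit of 65535 and no background column. The deposited ratio column is log2 of Cy3 over Cy5. How the authors normalized it is not stated. The deposited series table, also in log2, served only as an alternative: 39 of its 47 columns equal the ratio of another array, 7 their own and 1 none (tolerance 1e-06). A probe that lacked the authors' processed value on at least 1 of the 47 arrays was left out on all of them.

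Raw intensities were corrected by loess within each array (span 0.3) to M, which correlated with the deposited ratio at 0.984 or more. A normexp background correction had been foreseen but could not be run without background values. limma 3.58.1 (lmFit and eBayes, R 4.3.3) took all 47 arrays, with 8 groups and 12 hybridisation dates as fixed terms, 28 residual and 6.75 prior degrees of freedom. Of the dates 8 held animals of both treatments, 2 MAA alone and 2 saline alone. Saline testis against reference used the 23 saline arrays. P-values are two-sided and Benjamini-Hochberg adjusted over 20500 probes. Probes were named by GEO's platform annotation, and 101 of the 102 matched the reference table of rat genes by gene ID. Where a gene has several probes, the one brightest in the testis channel stands for it unless another is named. The testis channel alone was quantile normalized. Precision is limited by how many arrays there are, each from its own animal per the labels.

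The members, lists and tests were chosen with earlier results of these data known. The genes named are all called ones, the 2 with the smallest p per subunit and time, the 3 highest and lowest saline ratios per subunit among genes never saturated and above background on all saline arrays, X-linked genes and paralogues, stalk proteins and saturated genes, and called pathway genes. Genes with 2 probes, Mrpl27, Mrpl30, Rpl30, Rpl34 and the marker genes were named after their values were seen. The fit was tested on simulated data with known changes. Alternatives were median centring, the testis channel alone, the deposited ratio, saturated spots missing, a filter on dim probes, the date left out, as a random block or taken singly, gene means, and each array left out.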

Additional observations from a re-analysis of the deposited data

Results flagged for a closer look

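Among 32 groups of values tested for a sample far from the rest, 3 held one, and chance alone gives about 1 in 20. Rps21 had an M of -0.27 in MAA-treated animal 39 at 24 h, while the other 5 treated animals lay between -1.01 and -0.74, and the gap was 0.634 of the range. Rpl27, at its probe saturated in the reference, had an M of -1.06 in the same animal, against -1.74 to -1.53 in the others, with a gap of 0.682 of the range. On the array of animal 39 the reference channel had a median brightness of 2101 units, and 27 cytosolic probes were saturated in it. Rpl9 had an M of -2.57 in saline animal 38 at 24 h, against -2.14 to -1.89 in the other saline animals, with a gap of 0.631 of the range. On that array the reference channel had a median of 869 units, and 11 cytosolic probes were saturated in it.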

How the results depend on the processing

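The 8 cytosolic calls at 24 h depended on the processing. There were 0 after median centring (0.941% of all probes called), 1 in the testis channel alone (Rps16, lower; 5.24%), 0 with the authors' deposited ratio (1.84%), 2 with saturated spots missing (2.85%), 15 with only probes above background on 24 or more arrays (7.88% of 12402 probes called), 1 without a date term (2.8%) and 1 with date as a random block (3.1%), Rpl10 in both. Within each of hybridisation dates 5 and 11, and with the series table as labelled (chosen after seeing the data), 0 of all probes were called, so the 0 there says nothing about these calls. With each array left out in turn the count was 2 to 14, with 2 without MAA-treated animal 39, 3 without animal 40 or 47, 4 without saline animal 38, 45 or 46, 5 without MAA-treated animal 48 or saline animal 37, and 14 without MAA-treated animal 36 of 12 h. The cytosolic median at 24 h was -0.07 both in the testis channel alone and after median centring, and 0.05 with the series table. Mitochondrial calls at 24 h numbered 1 with the testis channel alone, with the deposited ratio and with the filter on dim probes, and 0 to 1 with an array left out (1 without saline animal 37). The mitochondrial median at 24 h was -0.23 after median centring, -0.09 in the testis channel, -0.08 with the deposited ratio and 0.06 within date 11. At 12 h there were 2 mitochondrial calls with the testis channel alone (2.25%), 1 with the deposited ratio (1.92%), and 1 cytosolic call (Rpl18) with the filter on dim probes (7.12%). The F test called 1 cytosolic probe with that filter, and 0 to 1 with an array left out. In saline testis against reference the cytosolic median was -0.40 with median centring, -0.57 with the deposited ratio and -0.53 with the series table, and the mitochondrial median -0.02 with median centring and with the series table. Cytosolic probes called above the reference numbered 5 with median centring, 0 with the filter and 1 with the series table. Signs turned with median centring for Mrps23 at 4 h (0.01) and at 24 h for Rpl18 (-0.07), Mrpl55 (-0.13), Mrps21 (-0.13) and Mrps33 (-0.21). They turned with the testis channel alone for Rps13 at 4 h (-0.01) and at 24 h for Rps21 (-0.03), Rpl5 (-0.08), Rps3a (-0.09) and Mrpl55 (-0.02). Within single dates they turned for Mrpl10 (-0.01) and Rps13 (-0.04) at 4 h, Mrps5 at 8 h (-0.13) and Rps3a at 12 h (0.47). The causes were not tested. Of 376 single-array omissions over the 8 called probes 48 lost the call. No paired analysis was possible because animal numbers do not recur between groups. The testis channel alone gives no ratio to the reference. Probes near background and at the scanner's limit are limited by their signal and not by the number of arrays alone.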
